A study of Mus musculus with 12 samples.

Results

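The Toll-like receptor and NF-kB signalling genes are 46 genes taken by name from the catalogues of 12 RNA-seq libraries, out of 14275 genes listed in all. Lines that only repeat another line or give the partner form without an event were dropped, and the distinct transcript events of each gene were counted in each library. The cells were BV-2, an established line of immortalised mouse microglia, and made up 4 groups of 3 libraries: Control, LPS (lipopolysaccharide, a bacterial cell wall component), NMN (nicotinamide mononucleotide, a precursor of NAD) and LPS+NMN. The groups differ in treatment and share this line; the sources used here give neither doses nor times. Whether replicates were grown as separate cultures is not stated, and p-values then measure the spread among these 12 libraries only, a spread that may be technical.

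Toll-like receptors recognise microbial molecules. LPS is handed by Cd14 to the complex of Tlr4 and Ly96 (MD-2), which signals through the adaptor pair Tirap and Myd88 and, from endosomes, through Ticam2 and Ticam1 (TRIF). Myd88 gathers the IRAK kinases, Traf6 activates the TAK1 complex, and the IKK complex marks the IkB inhibitors for destruction, which frees NF-kB dimers to enter the nucleus. The pathway drives cytokine production in microglia and is shut off by its own targets, among them the IkB protein Nfkbia and the ubiquitin editor Tnfaip3 (A20).

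An event is a feature of the transcripts found for a gene: a first exon, a last exon, a skipped exon, a retained intron or an alternative exon end. Splicing events can also be listed in an approximate form. The catalogues hold no read counts, no expression levels and no depth. Numbers of events are therefore not levels, and the sampling error of a listing is unknown, as depth is.

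Exons of 5 genes are printed because they show what a listed splicing event removes from a coding sequence: those of Myd88, Tlr4, Ly96 and Ripk2 were listed in some libraries only, and that of Irak2 was skipped in all 12. Their GENCODE M21 sequences (GRCm38) are shown 5′ to 3′ on the coding strand, all of them wholly coding. For the exons of Myd88, Tlr4 and Irak2 the skipped exon is in capitals between 15 bases of each neighbouring exon. For the exons of Ly96 and Ripk2 the capitals mark the part that a shorter listed form lacks.
Myd88 exon 2, 135 bases, chr9:119338576-119338710, minus strand: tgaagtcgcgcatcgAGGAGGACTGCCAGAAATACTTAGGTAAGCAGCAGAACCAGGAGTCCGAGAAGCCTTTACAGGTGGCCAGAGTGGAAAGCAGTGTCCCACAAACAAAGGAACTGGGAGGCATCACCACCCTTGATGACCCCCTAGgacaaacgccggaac
Tlr4 exon 2, 167 bases, chr4:66833894-66834060, plus strand: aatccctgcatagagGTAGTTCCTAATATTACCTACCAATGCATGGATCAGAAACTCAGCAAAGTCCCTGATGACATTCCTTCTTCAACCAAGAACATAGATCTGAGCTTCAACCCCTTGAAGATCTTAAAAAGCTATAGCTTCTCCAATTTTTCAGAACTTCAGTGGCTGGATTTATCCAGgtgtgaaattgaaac
Irak2 exon 3, 144 bases, chr6:113665703-113665846, plus strand: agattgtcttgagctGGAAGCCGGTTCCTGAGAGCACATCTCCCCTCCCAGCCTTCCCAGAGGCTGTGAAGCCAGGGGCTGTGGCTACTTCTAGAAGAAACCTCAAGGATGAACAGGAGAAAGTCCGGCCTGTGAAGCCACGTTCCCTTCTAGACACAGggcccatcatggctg
Ly96 exon 3, 129 bases, chr1:16700795-16700923, plus strand: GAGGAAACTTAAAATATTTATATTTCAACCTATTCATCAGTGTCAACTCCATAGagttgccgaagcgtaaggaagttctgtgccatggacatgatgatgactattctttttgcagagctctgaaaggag
Ripk2 exon 6, 162 bases, chr4:16138074-16138235, minus strand: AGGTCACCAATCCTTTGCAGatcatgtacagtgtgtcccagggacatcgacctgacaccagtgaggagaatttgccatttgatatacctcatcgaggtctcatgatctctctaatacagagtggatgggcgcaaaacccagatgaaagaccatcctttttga
Leaving out the 135 bases of Myd88 exon 2 or the 144 of Irak2 exon 3 keeps the reading frame, whereas the 167 bases of Tlr4 exon 2 are not a multiple of 3. The 54 capital bases of Ly96 keep the frame, and the 20 of Ripk2 do not. Length of the exon and of both neighbouring introns matched the annotation for Myd88, Tlr4, Irak2 and Ly96.

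All 46 genes were listed in every library, where 10858 of the 14275 genes (76.1%) were. In 6 cases the only listings of a gene in a library lay on the strand opposite to it, in Control 3 and NMN 1 for Nfkbia, Control 3 and LPS+NMN 2 for Tbk1 and LPS 2 and LPS+NMN 3 for Irak3. The genes had 547 distinct events, of which 90 (16.5%) were listed in all 12 libraries and 216 (39.5%) in 1 library, against 16.2% and 44.0% of the 141591 events of all genes. Libraries held 11911 to 12246 genes and 50784 to 55787 events. Of the microglia and macrophage markers, 15 of 16 were listed and 13 of them in every library, with 47 to 60 events in sum and Sall1 not listed. The cell type label reads macroglia, but of 8 astrocyte markers Aqp4, Slc1a3, Aldh1l1, Gja1 and Sox9 were not listed, and the other 3 had 2 to 6 events in sum. The oligodendrocyte list had 5 of 8 markers listed and the neuron list 4 of 8, the T and B cell list 4 of 9, and the fibroblast and endothelium list 6 of 7. The fibroblast and endothelium sum was 4 to 8 in Control, 8 to 13 in LPS, 4 to 8 in NMN and 6 to 13 in LPS+NMN libraries, and its part in the results was not tested.

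**Figure D1:**
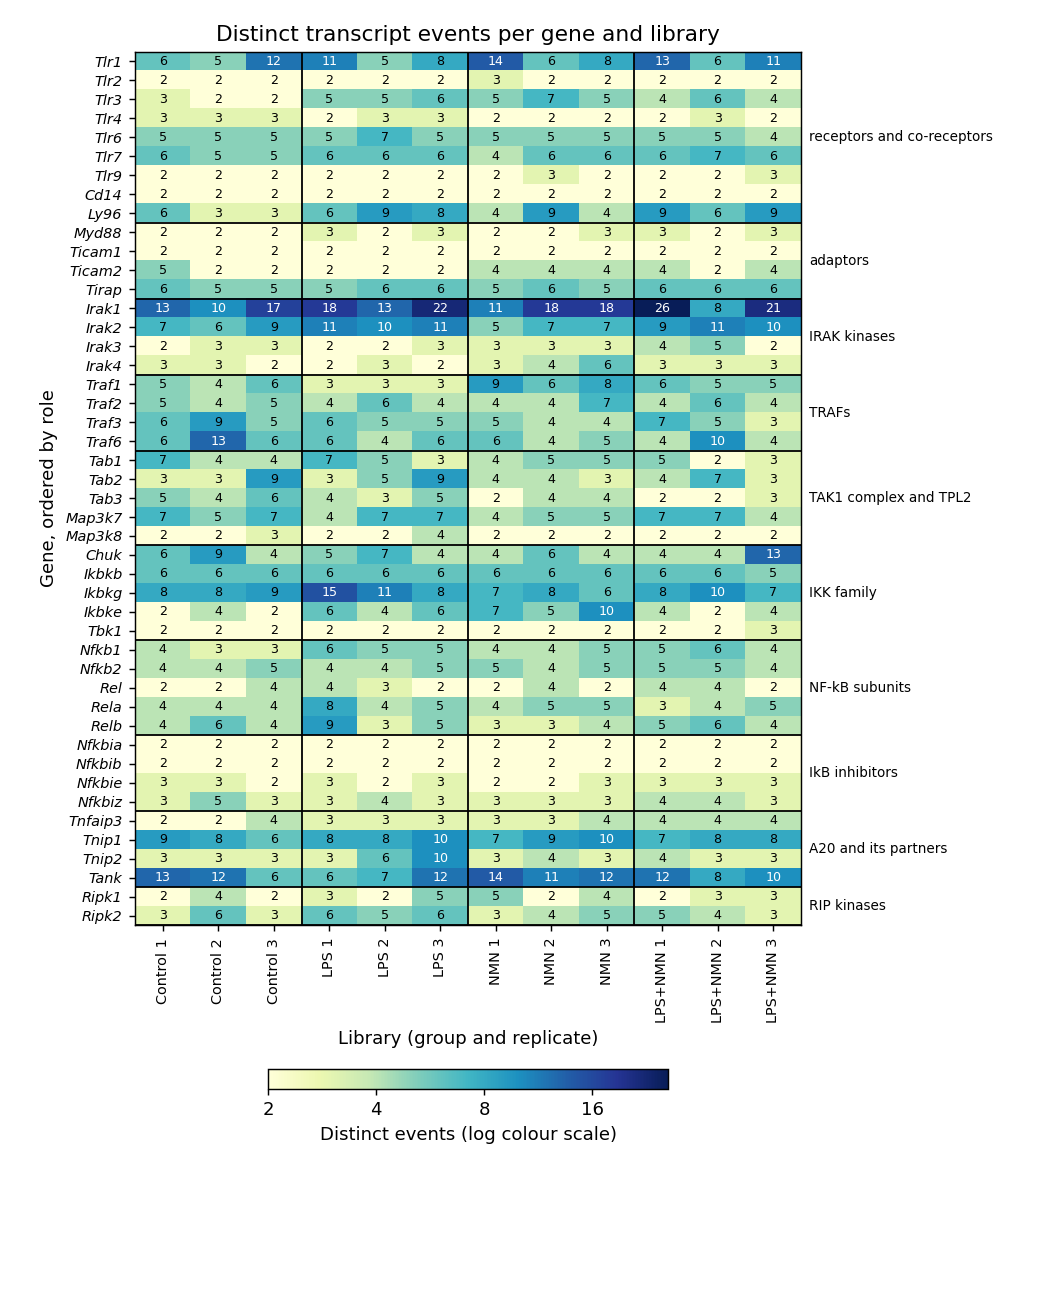
Distinct transcript events of the 46 genes (vertical axis, ordered by role) in each of the 12 libraries (horizontal axis, 3 replicates a group); the number in each cell is the count and the colour is on a log scale. Cd14, Ticam1, Nfkbia and Nfkbib stand at 2 in every library, while Irak1 spans 8 to 26.

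Summed over the 46 genes, every LPS library listed more events than every control library. The sum was 205 in each of the 3 control libraries, 229, 211 and 243 in LPS, 204, 215 and 224 in NMN, and 234, 214 and 217 in LPS+NMN libraries. The group means were 205 ± 0, 227.7 ± 16.04, 214.3 ± 10.02 and 221.7 ± 10.8 (SD, n = 3). Over all genes the means stood the other way, with 53313 ± 2380 events in control and 52320 ± 698 in LPS libraries. The libraries overlapped there, at 51039 to 55787 events in control and 51514 to 52738 in LPS. The genes made up 0.367 to 0.402% of the events in control and 0.41 to 0.461% in LPS libraries. The share was 0.402 to 0.412% in NMN and 0.403 to 0.445% in LPS+NMN libraries, the latter also wholly above control. LPS sums stayed above control sums with each gene left out in turn except Ly96, without which the highest control and the lowest LPS library both had 202. On the annotated strand alone the sums were 201, 205 and 198 in control and 227, 208 and 241 in LPS libraries. Since the genes were chosen as a list, no p is given for their sum.

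Of the event classes, skipped exons had the widest gap between LPS and control means. The control libraries had 38, 40 and 37 of them and the LPS libraries 49, 42 and 53, which do not overlap (38.3 ± 1.53 and 48.0 ± 5.57, SD, n = 3). NMN libraries had 33, 47 and 41 and LPS+NMN libraries 42, 43 and 42. Across all genes skipped exons averaged 9134 ± 860 in control and 8489 ± 163 in LPS. First exons of the 46 genes averaged 80.7 ± 0.577 in control and 85.3 ± 3.21 in LPS, again without overlap (80 to 81 and 83 to 89). NMN libraries had 77, 77 and 88 first exons and LPS+NMN libraries 82, 84 and 82, the latter also above control. Last exons averaged 56.0 ± 1 in control and 56.3 ± 0.577 in LPS. Alternative exon ends averaged 26 ± 2.65 and 31.3 ± 4.62, and retained introns 4 ± 2.65 and 6.67 ± 4.04, with overlapping groups in both classes.

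**Figure D2:**
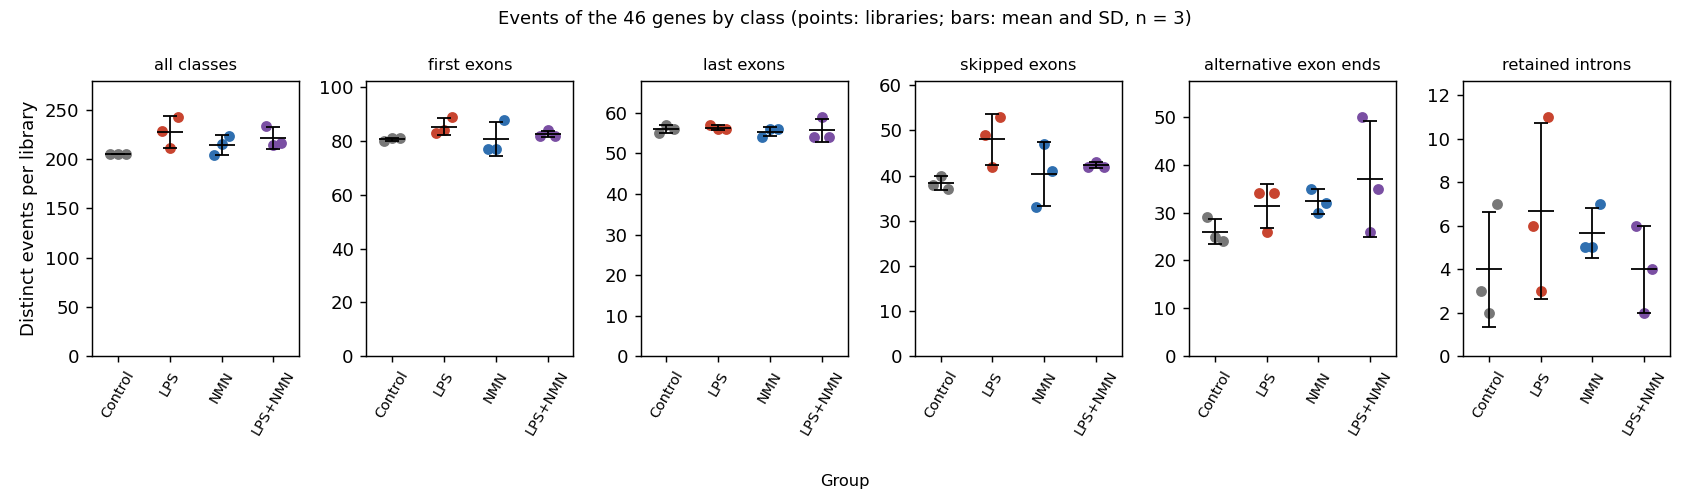
Events of the 46 genes per library (vertical axis) in each group (horizontal axis), in all classes together and in each class; points are libraries and bars give the mean and SD (n = 3). The 3 control points coincide at 205, and the skipped exons of the LPS libraries (42 to 53) lie above those of control (37 to 40).

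Gene by gene, no difference passed limma's threshold in any comparison. The test ran on log2(events + 1) over 11671 genes with Benjamini-Hochberg adjustment at 0.05. It covered 42 of the 46 genes, since the other 4 had 2 events in all 12 libraries and left nothing to test. In LPS against Control 0 of the 42 were called, where 0.3% of all genes tested were called, and 7 (16.7%) had an unadjusted p under 0.05, where 7.47% of all did. In NMN against Control 0 were called (0.231% of all genes tested) and 5 (11.9%) were under 0.05 unadjusted (7% of all). In LPS+NMN against Control 0 were called (0.334% of all) and 6 (14.3%) were under 0.05 unadjusted (7.45% of all). These comparisons share the control libraries.

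LPS+NMN against LPS, which the submitters' design text names as its purpose, gave 0 calls among the 42 genes (0% of all) and 3 (7.14%) under 0.05 unadjusted (4.46% of all). LPS+NMN against NMN gave 0 calls (0% of all) and again 3 under 0.05 unadjusted (4.55% of all). The interaction, which asks whether the difference made by NMN is not the same with and without LPS, gave 0 calls (0.0428% of all) and 2 under 0.05 unadjusted, Ikbke and Tlr3 (5.75% of all). Against Control the 42 genes had a median log2 difference of 0.078 with LPS, 0.042 with NMN and 0.088 with both, and against LPS the combined treatment had a median of 0; over all genes tested each median was 0. In LPS against Control 22 of the 42 (52.4%) had a higher and 14 a lower mean, where 4598 (39.4%) of all 11671 genes had a higher and 5302 a lower one.

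**Figure D3:**
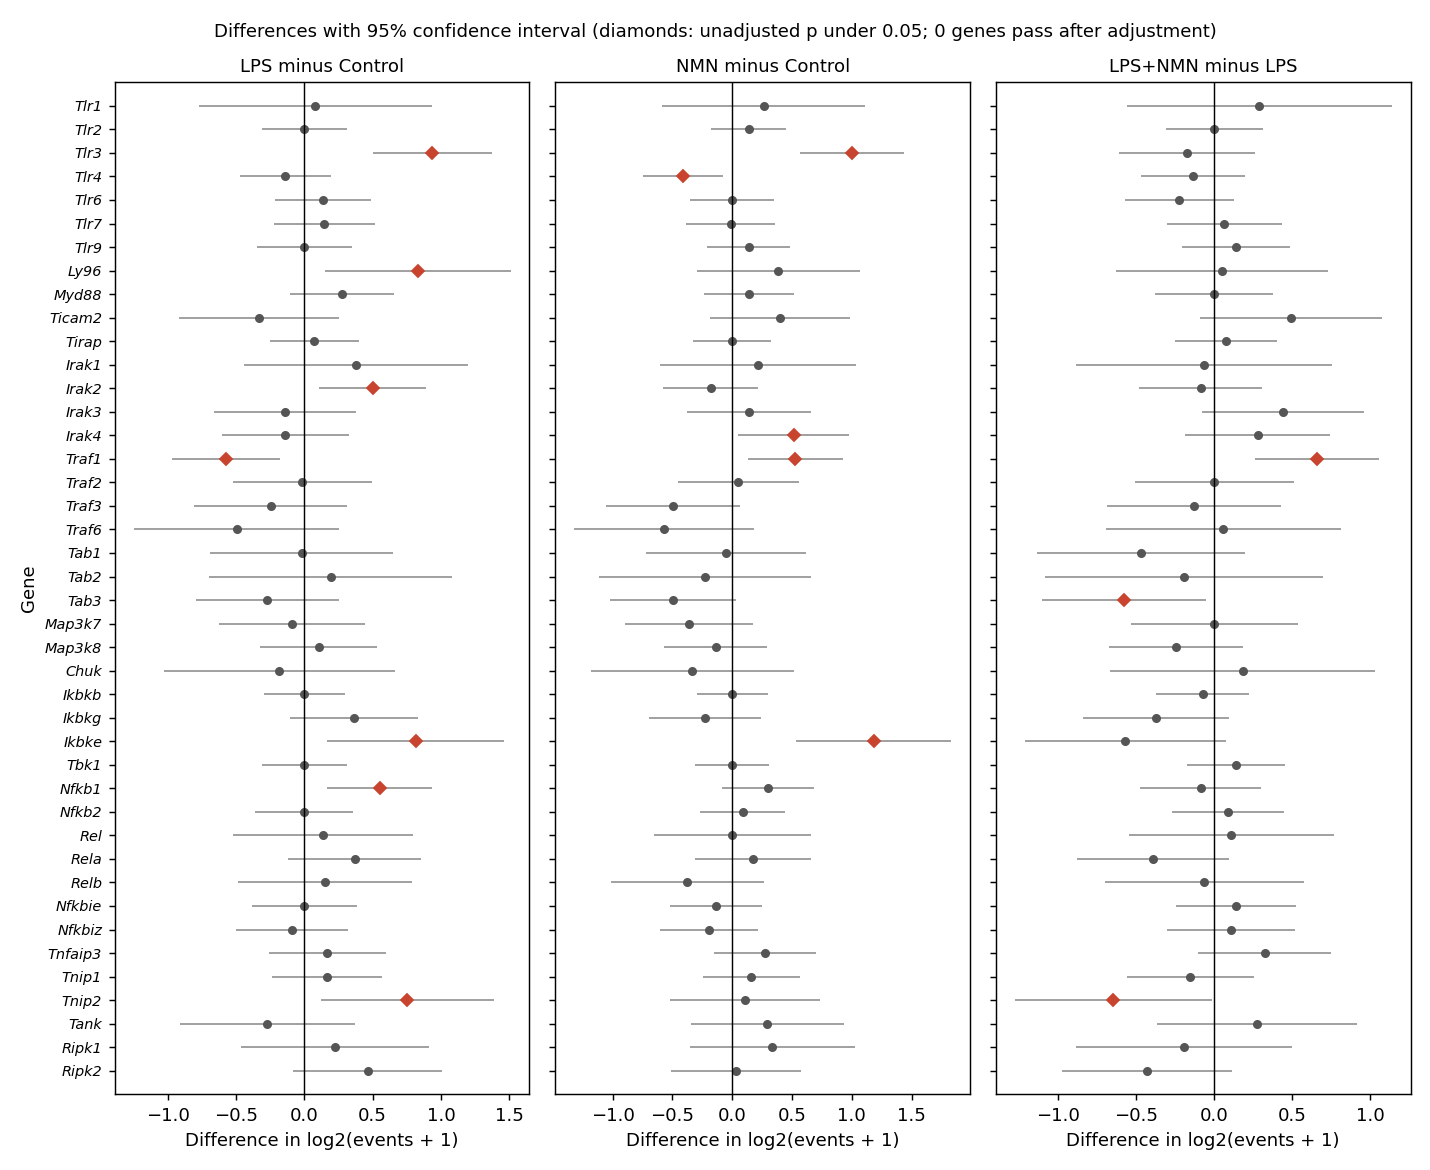
Difference in log2(events + 1) (horizontal axis) for the 42 tested genes (vertical axis, ordered by role) in LPS minus Control, NMN minus Control and LPS+NMN minus LPS; bars are 95% confidence intervals and diamonds mark an unadjusted p under 0.05. Tlr3 stands at 0.94 and 1.00 in the first pair of panels, and none of the genes passed after adjustment.

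Among the receptors, Tlr3 and Ly96 had more events on average after LPS and Tlr4 had fewer with NMN, none of them past the adjusted threshold. The 9 receptor and co-receptor genes summed to 35, 29 and 36 events in control, 41, 41 and 42 in LPS, 41, 42 and 36 in NMN and 45, 39 and 43 in LPS+NMN libraries. All LPS and LPS+NMN sums lay above all control sums.

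Tlr3, the endosomal receptor of double-stranded RNA (chromosome 8, 45395665 to 45411080, minus strand, GRCm38), had 3, 2 and 2 events in control, 5, 5 and 6 in LPS, 5, 7 and 5 in NMN and 4, 6 and 4 in LPS+NMN libraries. Every treated library exceeded every control library. The log2 difference was 0.94 ± 0.20 (SE, limma adjusted p = 0.120) in LPS, 1.00 ± 0.20 (limma adjusted p = 0.112) in NMN and 0.76 ± 0.20 (limma adjusted p = 0.229) in LPS+NMN against Control. The interaction was -1.18 ± 0.28 (limma adjusted p = 0.286). Of the 42 genes 3 lay wholly above control in LPS, Tlr3, Irak2 and Nfkb1, where 2.52% of all genes did; Irak2 did so only with opposite-strand events counted. In NMN these were Tlr3 and Ikbke (2.16% of all), joined by Traf1 on the annotated strand alone, where no share was taken. In LPS+NMN it was Tlr3 alone (2.57% of all).

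The added Tlr3 events were of several kinds, and with first and last exons only the differences from control were 0.49 with LPS, 0.28 with NMN and 0.28 with both. No splicing event of Tlr3 was listed in a control library, while each treated library had 1 to 4. Skipping of exon 2 of transcript Tlr3-205, 183 bases long, was listed in LPS 1 and 2, NMN 2 and LPS+NMN 2. The first exon of Tlr3-201 was in LPS 3, NMN 3 and all 3 LPS+NMN libraries and in no control library. A first exon that ended where exon 2 of Tlr3-201 ends was in Control 1 and 3 alone.

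Tlr4, the receptor subunit for LPS (chromosome 4, 66827584 to 66930284, plus strand, GRCm38), had 3 events in each control library, 2, 3 and 3 in LPS, 2 in each NMN library and 2, 3 and 2 in LPS+NMN libraries. With all listings counted, NMN lay wholly below control, as Tlr4 alone did among the 42 genes (2.35% of all). The log2 difference from control was -0.42 ± 0.15 (SE, limma adjusted p = 0.544). One control event is a first exon on the opposite strand, in Control 1. On the annotated strand control had 2, 3 and 3 events and meets NMN at 2, with a difference of -0.28. With first and last exons only the difference was 0. The difference in LPS was -0.14 ± 0.15 (limma adjusted p = 0.851). Skipping of the printed exon 2, present in the annotation, was listed in all 3 control libraries and in LPS 3, and in no NMN or LPS+NMN library.

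Ly96, the co-receptor that holds LPS in the Tlr4 complex (chromosome 1, 16688051 to 16709611, plus strand, GRCm38), had 6, 3 and 3 events in control, 6, 9 and 8 in LPS, 4, 9 and 4 in NMN and 9, 6 and 9 in LPS+NMN libraries. LPS and control met at 6, and the log2 difference was 0.83 ± 0.31 (SE, limma adjusted p = 0.457) in LPS and 0.88 ± 0.31 (limma adjusted p = 0.431) in LPS+NMN against Control. Of the 6 events in LPS 1, 2 were last exons on the opposite strand. On the annotated strand LPS had 4, 9 and 8 events and control 6, 3 and 3, so that LPS 1 fell below Control 1. With first and last exons only the LPS+NMN difference was 0. Exon 3 was listed in its long form of 129 bases and its short form of 75 bases, the latter that of Ly96-202, in Control 1, LPS 2 and 3 and all NMN and LPS+NMN libraries. Skipping of the whole exon was in Control 2, LPS 2, NMN 2 and LPS+NMN 1 and 3.

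Cd14, which passes LPS to Ly96, had 2 events in all 12 libraries, a first and a last exon. Tlr1, a partner of Tlr2 for bacterial lipoproteins, had 6, 5 and 12 events in control, 11, 5 and 8 in LPS, 14, 6 and 8 in NMN and 13, 6 and 11 in LPS+NMN libraries. The spread within each group was as wide as that between groups. An approximate skipped exon of 102 bases in Tlr1, not annotated, was in all LPS libraries and none of control, and also in NMN 1 and 3 and LPS+NMN 1 and 3. Tlr1 and Tlr6 are close relatives and neighbours, and reads may have been shared between them. Tlr2, Tlr6, Tlr7, the receptor of single-stranded RNA, and Tlr9, the receptor of CpG DNA, ranged over 2 to 3, 4 to 7, 4 to 7 and 2 to 3 events.

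**Figure D4:**
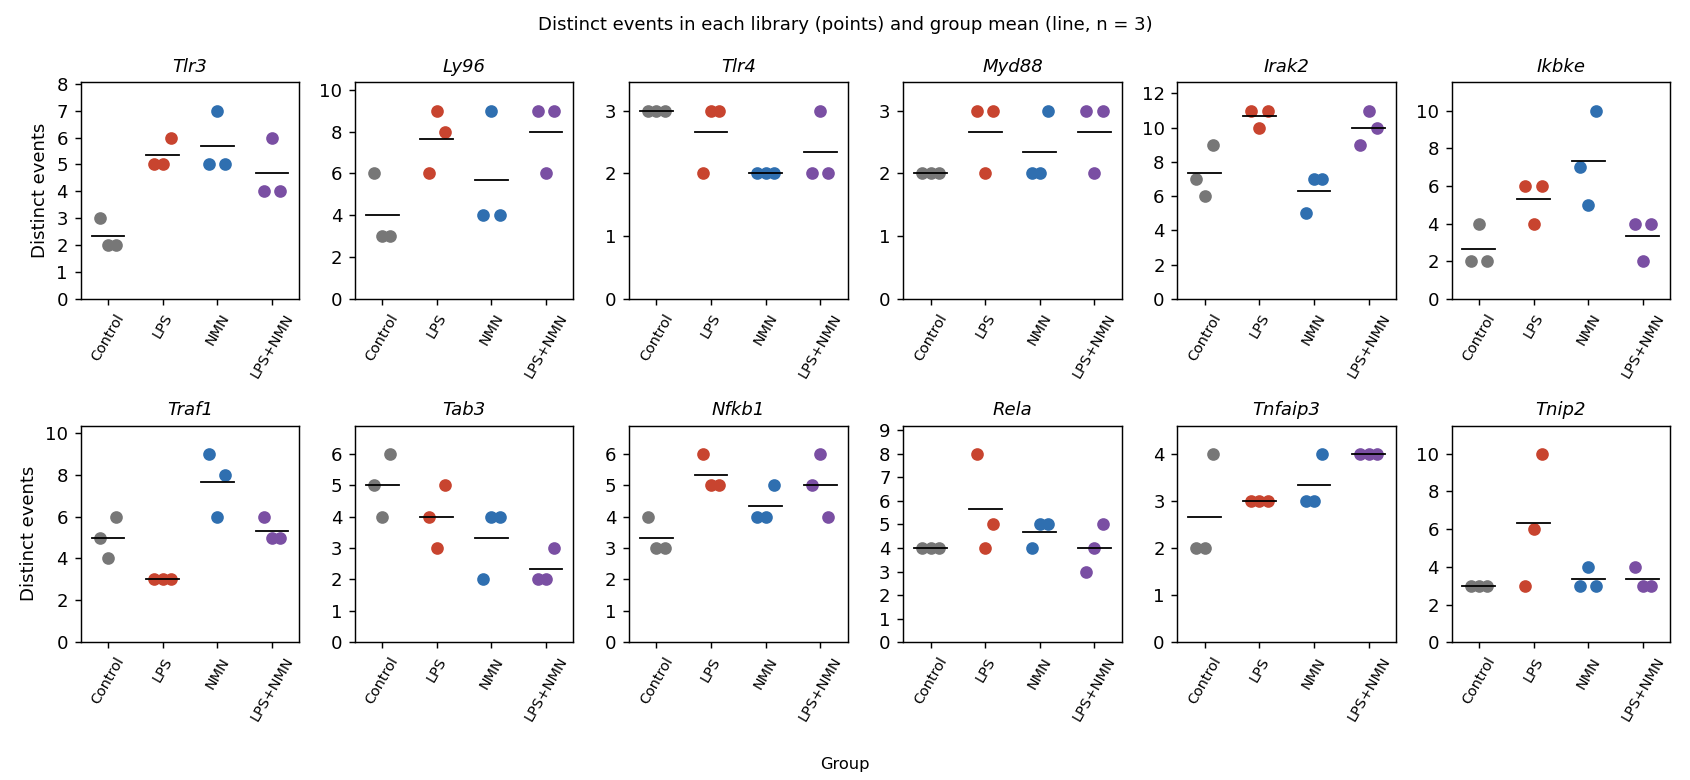
Distinct events (vertical axis) of 12 genes in each library by group (horizontal axis); points are libraries and lines are group means (n = 3). The control points of Tlr3 (2 to 3) lie below all treated points (4 to 7), and Traf1 has 3 in each LPS library.

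Of the adaptors, Myd88, the adaptor shared by most Toll-like receptors (chromosome 9, 119335934 to 119341411, minus strand, GRCm38), had 2 events in each control library, 3, 2 and 3 in LPS, 2, 2 and 3 in NMN and 3, 2 and 3 in LPS+NMN libraries. The groups overlap, and the log2 difference in LPS was 0.28 ± 0.17 (SE, limma adjusted p = 0.747). The added event was in each case skipping of the printed exon 2, listed in LPS 1 and 3, NMN 3 and LPS+NMN 1 and 3 and in no control library. A short Myd88 form that lacks this exon, which codes for 45 residues between the death and TIR domains, is known as an inhibitor of the pathway. The skipping is not in GENCODE M21.

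Ticam1, the adaptor of Tlr3 and of endosomal Tlr4, had 2 events in all 12 libraries. Ticam2, which links Tlr4 to Ticam1, had 5, 2 and 2 events in control, 2 in each LPS library, 4 in each NMN library and 4, 2 and 4 in LPS+NMN libraries. Tirap, which brings Myd88 to the membrane, stayed at 5 or 6. On the annotated strand it had 5 in each NMN and 6 in each LPS+NMN library, which do not overlap. No share of all genes was taken in that counting.

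Irak2, a kinase that sustains Myd88 signalling (chromosome 6, 113638467 to 113695026, plus strand, GRCm38), had 7, 6 and 9 events in control, 11, 10 and 11 in LPS, 5, 7 and 7 in NMN and 9, 11 and 10 in LPS+NMN libraries. LPS lay wholly above control, and LPS+NMN wholly above NMN, as 1.53% of all genes did in the latter. The log2 difference was 0.50 ± 0.18 (SE, limma adjusted p = 0.417) in LPS against Control and 0.59 ± 0.18 (limma adjusted p = 0.736) in LPS+NMN against NMN, comparisons that share no library. On the annotated strand control had 6, 6 and 9 and LPS 11, 9 and 11 events, which meet at 9, while LPS+NMN, with 8, 11 and 10, stayed above NMN. With first and last exons only the difference in LPS+NMN against NMN was 0.088. Skipping of the printed exon 3 was listed in all 12 libraries. A first exon that is not annotated was in all LPS and no control libraries, and also in NMN 1 and 2 and LPS+NMN 2 and 3. At 113645418 to 113647081 as deposited, it lies within the first exon of Irak2-204 (113645406 to 113647254). That annotated exon was in Control 1 and 2, all LPS libraries, NMN 3 and LPS+NMN 2.

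Irak1, a kinase of the Myd88 complex with the most events of the 46 genes, had 13, 10 and 17 in control, 18, 13 and 22 in LPS, 11, 18 and 18 in NMN and 26, 8 and 21 in LPS+NMN libraries. The groups overlap, and the LPS+NMN libraries alone span the whole range. Irak4, the first kinase recruited by Myd88, had 3, 3 and 2 events in control, 2, 3 and 2 in LPS, 3, 4 and 6 in NMN and 3 in each LPS+NMN library (NMN against Control 0.51 ± 0.21, SE, limma adjusted p = 0.658). A last exon of Irak4 that is not annotated was in all 3 NMN libraries and in no other. Irak3, an inhibitory member of the family, had 2 to 5 events; in LPS+NMN 3 and LPS 2 all of them were on the strand opposite to the gene.

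Traf1, a regulator of TNF receptor signalling that is itself an NF-kB target (chromosome 2, 34941750 to 34961772, minus strand, GRCm38), had 5, 4 and 6 events in control, 3 in each LPS library, 9, 6 and 8 in NMN and 6, 5 and 5 in LPS+NMN libraries. LPS lay wholly below control, as Traf1 alone did among the 42 genes (2.69% of all), and LPS+NMN lay wholly above LPS. The log2 difference was -0.57 ± 0.18 (SE, limma adjusted p = 0.343) in LPS and 0.53 ± 0.18 (limma adjusted p = 0.488) in NMN against Control, and 0.66 ± 0.18 (limma adjusted p = 0.682) in LPS+NMN against LPS. Both separations rest on events on the opposite strand, of which Control 1 and 3, NMN 3 and LPS+NMN 1 and 2 had 2 each. On the annotated strand Traf1 had 3, 4 and 4 events in control, 3 in each LPS library, 9, 6 and 6 in NMN and 4, 3 and 5 in LPS+NMN libraries. LPS then meets control and LPS+NMN at 3, and the differences were -0.21 for LPS less Control and 0.30 for LPS+NMN less LPS, while that of NMN from Control was 0.76 (limma adjusted p = 0.297).

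No splicing event of Traf1 was listed in an LPS library, whereas the NMN libraries had 5, 2 and 4. An alternative end of exon 7 was in all NMN libraries, in LPS+NMN 3 and in no control or LPS library. Without the splicing events the NMN difference of Traf1 was -0.088 on the log2 scale. Over the 4 TRAF genes the sums were 22, 30 and 22 in control, 19, 18 and 18 in LPS, 24, 18 and 24 in NMN and 21, 26 and 16 in LPS+NMN libraries. Traf6, the ubiquitin ligase downstream of the IRAK kinases, had 4 to 13 events, Traf3, which directs interferon output, 3 to 9, and Traf2, of the TNF receptor branch, 4 to 7.

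In the TAK1 complex, Tab3, a subunit that binds ubiquitin chains (chromosome X, 85574022 to 85634469, plus strand, GRCm38), had 5, 4 and 6 events in control, 4, 3 and 5 in LPS, 2, 4 and 4 in NMN and 2, 2 and 3 in LPS+NMN libraries. LPS+NMN lay wholly below control, as Tab3 alone did among the 42 genes (2.48% of all), and differed on the log2 scale by -0.85 ± 0.24 (SE, limma adjusted p = 0.304). Against LPS it was -0.58 ± 0.24 (limma adjusted p = 0.930), with groups that meet at 3. With first and last exons only these differences were -0.42 and -0.28. Tab1, an activator of the kinase, had a longer form of exon 4 in all NMN and no control libraries, and in LPS 1 and 2 and LPS+NMN 1. Tab2 had 3 to 9 events, Map3k7, the kinase TAK1 itself, 4 to 7, and Map3k8 (TPL2), which opens the ERK branch, 2 to 4.

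Among the IKK genes, Ikbke, an IKK-related kinase that is induced by NF-kB (chromosome 1, 131254343 to 131279606, minus strand, GRCm38), had 2, 4 and 2 events in control, 6, 4 and 6 in LPS, 7, 5 and 10 in NMN and 4, 2 and 4 in LPS+NMN libraries. Each NMN library exceeded each control and each LPS+NMN library, the latter as 1.62% of all genes did, and LPS met control at 4. The log2 difference was 1.18 ± 0.30 (SE, limma adjusted p = 0.270) in NMN and 0.81 ± 0.30 (limma adjusted p = 0.427) in LPS against Control. The interaction was -1.75 ± 0.42 (limma adjusted p = 0.286). With first and last exons only these differences were 0.14 in NMN and 0.031 in LPS, so that most of the gap lay in splicing events. A pair of alternative ends of a coding exon, 141 and 69 bases long, was listed in LPS 1 and 3 and NMN 1 and 3 and in no other library. The first exon of Ikbke-204 was in those libraries and in Control 2.

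Ikbkg (NEMO), the scaffold of the IKK complex, had 8, 8 and 9 events in control, 15, 11 and 8 in LPS, 7, 8 and 6 in NMN and 8, 10 and 7 in LPS+NMN libraries. LPS and control overlap at 8. Ikbkb, the main IkB kinase, had 6 events in 11 libraries and 5 in LPS+NMN 3. Chuk (IKK alpha) had 4 to 9 events except for 13 in LPS+NMN 3, and Tbk1, which drives interferon induction, had 2 or 3.

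The NF-kB subunits gave 18, 19 and 20 events in control and 31, 19 and 22 in LPS libraries. Nfkb1, the precursor of p50 (chromosome 3, 135584655 to 135691547, minus strand, GRCm38), had 4, 3 and 3 events in control, 6, 5 and 5 in LPS, 4, 4 and 5 in NMN and 5, 6 and 4 in LPS+NMN libraries. LPS lay wholly above control, and the log2 difference reached 0.55 ± 0.18 (SE, limma adjusted p = 0.346). A first exon that is not annotated was in Control 1, all LPS and NMN libraries and LPS+NMN 1 and 3. Skipping of exon 24, 178 bases of coding sequence, was listed in all 12 libraries.

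Rela, the p65 subunit (chromosome 19, 5637483 to 5648130, plus strand, GRCm38), had 4 events in each control library, 8, 4 and 5 in LPS, 4, 5 and 5 in NMN and 3, 4 and 5 in LPS+NMN libraries. The groups overlap, and the log2 difference in LPS was 0.37 ± 0.22 (SE, limma adjusted p = 0.730). Relb, of the non-canonical pathway, had 9 events in LPS 1 and 3 to 6 elsewhere. On the annotated strand Relb had 4, 6 and 4 events in control and 5, 6 and 4 in LPS+NMN libraries. Each NMN library had 3 there, below all of these, and no share of all genes was taken in that counting. Nfkb2 (p100) had 4 or 5, and Rel (c-Rel) 2 to 4.

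Of the IkB inhibitors, Nfkbia, the target gene that returns NF-kB to the cytoplasm (chromosome 12, 55489410 to 55492647, minus strand, GRCm38), had 2 events in all 12 libraries. In Control 3 and NMN 1 both of them lay on the opposite strand, so that no first or last exon of Nfkbia itself was listed there. Nfkbib also had 2 in all 12, Nfkbie 2 or 3, and Nfkbiz, a nuclear cofactor for secondary target genes, 3 to 5.

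Tnfaip3, which removes activating ubiquitin chains and restrains the pathway (chromosome 10, 19000910 to 19015657, minus strand, GRCm38), had 2, 2 and 4 events in control, 3 in each LPS library, 3, 3 and 4 in NMN and 4 in each LPS+NMN library. Control 3 reaches 4 through a pair of splicing events. LPS+NMN lay wholly above LPS (1.8% of all genes), which Traf1 did only with opposite-strand events counted, and none of the 42 genes lay wholly below it (1.42% of all). The log2 difference was 0.32 ± 0.20 (SE, limma adjusted p = 0.930) in LPS+NMN against LPS and 0.49 ± 0.20 (limma adjusted p = 0.546) against Control.

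The first exon of transcript Tnfaip3-204, at 18890150 to 18890322 on chromosome 10 as the files give it, on a mouse assembly that they do not name, was listed in all 9 treated libraries and in no control library. The first exon of Tnfaip3-201, upstream of it at 18890901 to 18891158, was in all 12. Counting first and last exons alone, Tnfaip3 had 2 in each control library, 3 in each LPS library, 3, 3 and 4 in NMN and 4 in each LPS+NMN library. In that setting LPS+NMN against Control was called (log2 difference 0.74, limma adjusted p = 0.0281), where 0.346% of 10398 genes were. The counts did not vary within either group. This p therefore rests on the spread of the NMN libraries and on limma's moderation over other genes. It is the one call of a listed gene under any setting tried.

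The 250 bases before the RefSeq start of Tnfaip3 (GRCm38.p6, chr10:19015411-19015660, minus strand) are shown with matches to the kappaB consensus, searched on both strands, in capitals. The window precedes that RefSeq start only. The gene as annotated in GENCODE M21 reaches base 19015657, so most of the window lies inside the annotated gene.
Tnfaip3 upstream: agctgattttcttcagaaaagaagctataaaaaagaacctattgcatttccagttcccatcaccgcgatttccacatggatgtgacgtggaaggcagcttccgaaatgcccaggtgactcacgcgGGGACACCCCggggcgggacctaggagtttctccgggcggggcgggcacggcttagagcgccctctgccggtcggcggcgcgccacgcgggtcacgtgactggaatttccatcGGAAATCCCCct
Windows before RefSeq starts were counted for 34 of the 46 genes, 50 windows in sum. A gene without a counted window need not lack a RefSeq entry. Over all genes 2382 of the 32851 counted windows of that length (7.25%) held a match. Among the 50 windows 18 did, from 12 genes. The 12 were Irak1, Map3k7, Nfkb2, Nfkbia, Nfkbie, Rel, Tank, Tlr2, Tlr3, Tnfaip3, Tnip1 and Traf3. A match describes these letters alone, and windows of alternative starts of a gene can overlap.

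Among the partners of A20, Tnip2, which binds Tnfaip3 and the kinase Map3k8, had 3 events in each control library, 3, 6 and 10 in LPS, 3, 4 and 3 in NMN and 4, 3 and 3 in LPS+NMN libraries. LPS 1 had the control value, and the log2 difference in LPS was 0.76 ± 0.29 (SE, limma adjusted p = 0.472). In LPS+NMN against LPS it was -0.65 ± 0.29 (limma adjusted p = 0.930). Tank, an adaptor of Tbk1 and Ikbke, had 13, 12 and 6 events in control, 6, 7 and 12 in LPS, 14, 11 and 12 in NMN and 12, 8 and 10 in LPS+NMN libraries, with all groups overlapping. Tnip1, another partner of A20, had 6 to 10.

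Of the RIP kinases, Ripk2, the kinase of the NOD receptors, had an alternative end of exon 6 in all 3 LPS libraries and in no other library. The short form of 142 bases, not annotated, lacks the 20 bases in capitals above. Both ends of this exon were listed together, which adds a pair of events. Ripk2 had 3, 6 and 3 events in control, 6, 5 and 6 in LPS, 3, 4 and 5 in NMN and 5, 4 and 3 in LPS+NMN libraries, so that the sums overlap. Ripk1, of the TNF receptor branch, had 2 to 5.

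Single events were then compared as listed in all 3 libraries of a group and in none of the other, among events found in at least 3 of the 6 libraries. In LPS against Control 5 of 206 events (2.43%) were gained (1.31% of all events considered) and 0 were lost (1.35% of all). The 5 were the Ripk2 pair, the Irak2 and Tnfaip3 first exons and the Tlr1 exon. In NMN against Control 5 of 195 (2.56%) were gained (1.19% of all), the Tab1 pair, the Traf1 end, the Tnfaip3 first exon and the Irak4 last exon, and 1 (0.513%) was lost (1.03% of all), the Tlr4 skip.

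LPS+NMN against LPS gave 0 of 213 gained (0.895% of all) and 2 (0.939%) lost (0.793% of all), the Ripk2 pair. LPS+NMN against Control gave 2 of 202 (0.99%) gained (1.39% of all), the first exons of Tlr3-201 and Tnfaip3-204, and 2 lost (1.28% of all), the Tlr4 skip and a Tab1 first exon. LPS+NMN against NMN gave 0 of 203 gained (0.696% of all) and 1 (0.493%) lost (0.799% of all), the Irak4 last exon. No test was made of these shares, which rest on 5 events or fewer, some of them both ends of 1 exon.

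**Figure D5:**
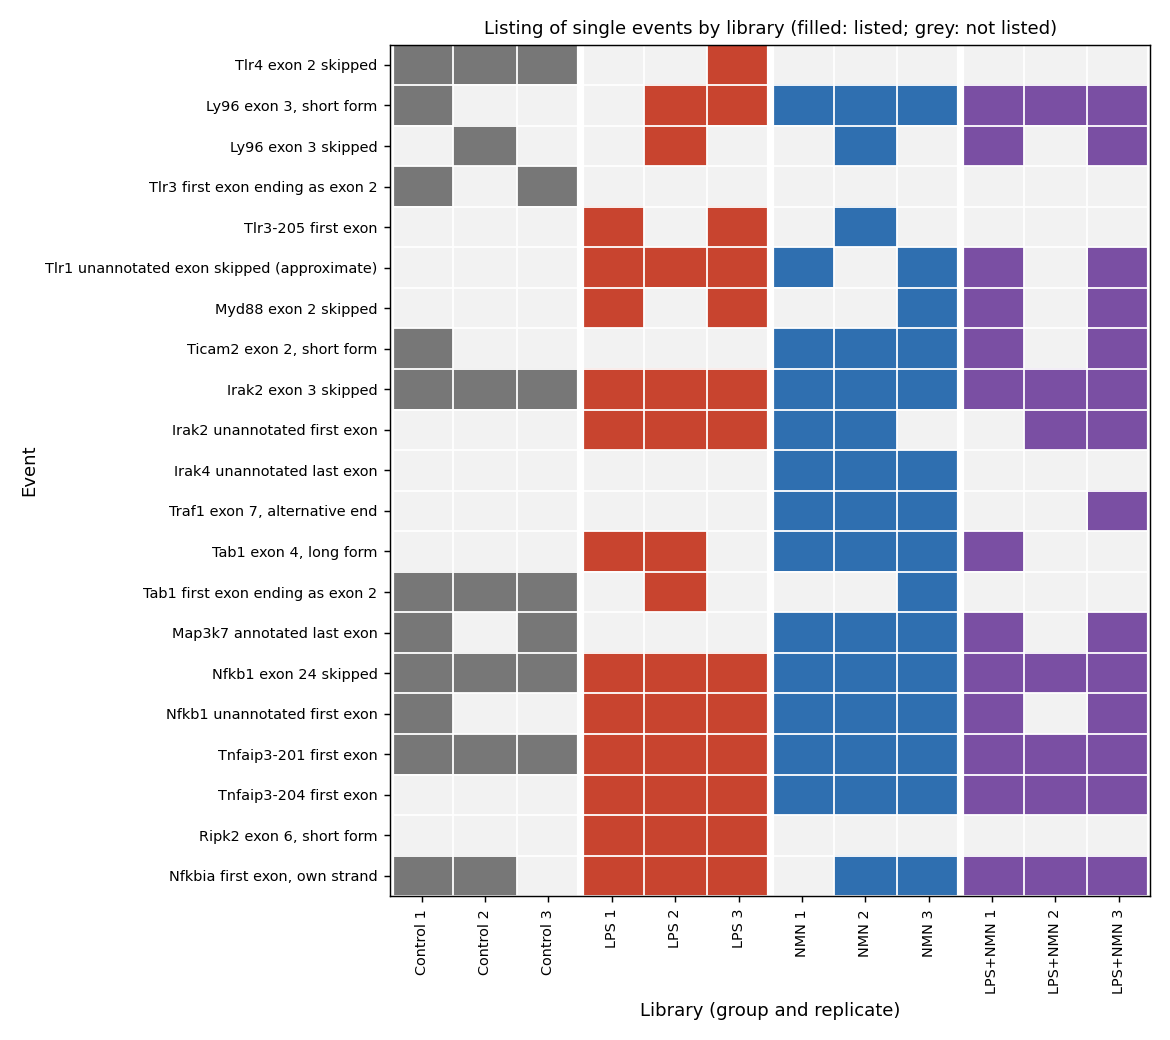
Single events (vertical axis) by library (horizontal axis, 3 replicates a group); a filled cell means that the event was listed and a grey one that it was not. The Tnfaip3-204 first exon is filled in the 9 treated libraries, the Tlr4 exon 2 skip in the 3 control libraries and LPS 3, and the Ripk2 short form in the 3 LPS libraries; the events shown were chosen after their values were seen.

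Skipped exons in exact form numbered 76 in 30 of the 46 genes, with a median length of 116 bases, and 25 of them (32.9%) were a multiple of 3 long, against 6959 of 16599 (41.9%) in all genes. Those listed in all 12 libraries were 10, in Irak1, Irak2, Map3k7, Nfkb1, Ripk2, Tank, Tlr7, Tnip1, Traf3 and Traf6. In Irak1, Irak2 and Map3k7 the exon is coding and keeps the frame.

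Among the other genes of the pathway, the target gene Il12b, a subunit of interleukins that steer T cells, was the only one called. It was listed in no control library and had 2 events in each of the 9 treated libraries (log2 difference 1.58 ± 0.22, SE, limma adjusted p = 0.00618 with LPS, 0.00715 with NMN and 0.00676 with both, each against Control). Its counts did not vary within any group, so this SE and these p-values rest on limma's moderation over other genes. The comparisons share the control libraries. Of 21 tested NF-kB target genes of 28, 13 (61.9%) had a higher and 4 a lower mean in LPS against Control, where 39.4% of all genes had a higher one. Of the 21, 4 were under 0.05 unadjusted, as 7.47% of all genes were. NMN against Control gave 12 higher (57.1%, 40.7% of all genes) and 5 lower, with 3 under 0.05 unadjusted (7% of all). LPS+NMN against Control gave 13 higher (61.9%, 40.9% of all genes) and 4 lower, with 4 under 0.05 unadjusted (7.45% of all). No gene was called in any comparison among 11 tested receptor partners, 25 adaptors and kinases, 21 ubiquitin enzymes, 7 genes of the TNF receptor branch and 14 other NF-kB regulators by limma; at an unadjusted p under 0.05 in LPS against Control these lists had 0, 1, 1, 0 and 2 genes.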

How the data were processed

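Total RNA of 12 BV-2 libraries had been sequenced. Per the submitters' processing notes, GRCm38, BWA 0.7.12, MACS2 2.1.0 and HOMER were used, and no source used here names the program behind the catalogues. Per the file headers, a line gives the identifier, type, gene, position, pattern and strand of an event; the authors deposited no count, level or other score per event. The positions are not on GRCm38: 396 of 540 exon boundaries of the 46 genes (73.3%) matched GENCODE M21 after 1 shift per gene, which was 0 in 3 genes, so positions of events are printed as deposited and those of genes and exons from GENCODE M21.

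Partner lines without the event (128404) and repeated lines (9998) were left out. Across libraries a first or last exon was identified by its gene and pattern, any other event by its gene and position within its type, and exact and approximate forms were counted separately. The value is how many distinct events a gene had in a library. Alternatives for all these choices are in the closing section.

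Limma 3.58.1 (R 4.3.3), with trend and robust moderation, was run on log2(events + 1) with a mean for each of 4 groups (8 residual degrees of freedom). To be tested, a gene needed 1 event in 3 libraries: 1500 fell below, 1104 did not vary and 11671 were tested. The design allowed for counts or expression values, which the files do not hold. The script was tested on simulated data.

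The genes and lists were chosen with earlier results of these data known. Values in every library are given for Tlr4, Cd14, Ly96, Myd88, Ticam1, Nfkb1, Rela, Nfkbia and Tnfaip3, for genes with an unadjusted p under 0.05 or groups that do not overlap in any comparison, for genes missing from a library (0), and for the 5 genes with most events; others so given were chosen after their values were seen. Of the listings of the 46 genes, 39 of 2606 lay on the opposite strand.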

Additional observations from a re-analysis of the deposited data

How the results depend on the processing

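Over the alternatives run (other low-value filters, pseudocount, moderation, event classes, merged forms, catalogue size as covariate, only the groups compared, each library left out, replicate block, annotated strand only), 0 of the 46 genes were called in any comparison, with 1 exception, Tnfaip3 in LPS+NMN against Control with first and last exons only, where 1 gene was called. With each library left out in turn the number called was 0 (range 0 to 0 in each comparison), and the lowest adjusted p of any of the genes was 0.0617, in NMN against Control without Control 1. The Traf1 difference in NMN against Control was -0.088 with first and last exons only; in that setting the differences of Ikbke, Irak2 (LPS+NMN against NMN), Ly96, Tab3, Tlr3 and Tlr4 were also smaller, as given with each gene. Over all genes the calls ranged from 1 to 49 higher and 0 to 12 lower in LPS, 1 to 42 and 0 to 5 in NMN and 3 to 47 and 0 to 11 with both treatments against Control, 0 to 10 and 0 to 2 when LPS+NMN was set against LPS, 0 to 3 and 0 to 3 in LPS+NMN against NMN, and 0 to 10 and 0 to 29 in the interaction; the cause was not tested. Single events were also counted when listed in at least 2 of 3 libraries of a group and none of the other. Against Control 25 events of the 46 genes were gained and 5 lost in LPS (3289 and 3746 over all genes). In NMN 19 and 13 were (3274 and 3391), and with both treatments 18 and 9 (3534 and 3617). LPS+NMN against LPS gave 11 and 15 (3079 and 2771), and LPS+NMN against NMN 15 and 12 (2800 and 2834). For scale, the 46 genes held 547 of the 141591 distinct events. The looser rule admits more, also events found in 2 libraries alone. The numbers of events considered above are therefore not its denominators, and no shares are given. With exact and approximate forms merged, 2 events were lost in NMN against Control. Replicate numbers did not pair the libraries: deviations of same-numbered libraries correlated at -0.027 to 0.022 and 4 of 12 libraries correlated best with their own number. With the replicate number as a block 0 of the 46 genes were called, and over all genes 28 higher and 5 lower with LPS and 29 and 3 with both treatments, each against Control. Counting on the annotated strand only was chosen after seeing the data. In that counting Relb lay wholly below control in NMN, and Ikbke, Tlr3 and Traf1 lay wholly above control. LPS+NMN lay wholly above NMN for Irak2, Relb and Tirap and wholly below it for Ikbke and Traf1. The shares of all genes in that counting were not taken, so these separations have no background to be read against. Depth is unknown, so an event that is not listed may have been present but too thinly covered.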
